A study of Homo sapiens with 4 samples.

Results

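The genes described here make microRNAs or carry out their silencing: AGO1, AGO2, AGO3, DICER1, DROSHA, DGCR8, XPO5, TARBP2, TNRC6A and TNRC6B. They were taken by symbol, 10 of the 26255 genes in the files, and all 10 reached the level needed for testing. The libraries are 2 of MRC5 cells treated with miRs and 2 of MRC5 cells labelled as having no treatment (control), all wild type and all at 48 h. MRC5 cells are a cell line of fibroblasts from human fetal lung, and the labels do not name the microRNAs that miRs stands for. A negative-control microRNA appears in the title of the series but the control cells are labelled as untreated, and which of these holds is unclear. Nothing in the labels says that the replicates were grown apart, and p-values here may therefore reflect technical spread only.

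MicroRNAs start as hairpins in long transcripts. DROSHA, an RNase III enzyme, and its RNA-binding partner DGCR8 (together the Microprocessor) cut the hairpin out in the nucleus, and XPO5 (exportin-5) carries it to the cytoplasm. DICER1, with the double-stranded RNA-binding protein TARBP2, trims it to a duplex, of which one strand is loaded into an argonaute protein. The argonaute finds messenger RNAs through the seed, bases 2 to 8 of the microRNA, and TNRC6 (GW182) proteins then recruit the enzymes that shorten the poly(A) tail, remove the cap and degrade the message. As background, a microRNA put into cells as a finished duplex needs the argonaute and TNRC6 steps but not DROSHA, XPO5 or cutting by DICER1.

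The seed sequences below are shown because they define what a silencing complex can pair with. The miR-302 and miR-200 families were chosen with earlier results of these data known, and let-7 and the miR-103 family as textbook regulators of DICER1. Mature sequences are from RefSeq (GRCh38.p14), 5′ to 3′, with the seed in capitals. The names in one seed family share the capitals exactly.
hsa-miR-302a-3p: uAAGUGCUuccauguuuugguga
hsa-miR-372-3p: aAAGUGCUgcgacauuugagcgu
hsa-miR-200c-3p: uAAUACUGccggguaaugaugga
hsa-miR-200a-3p: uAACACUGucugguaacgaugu
hsa-let-7a-5p: uGAGGUAGuagguuguauaguu
hsa-miR-103a-3p: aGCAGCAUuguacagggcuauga
hsa-miR-107: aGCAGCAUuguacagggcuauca

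Messenger RNA levels are given as FPKM, that is, fragments relative to the length of the transcript and the size of the library, so that genes can be compared with each other. In the control cells TNRC6A (18.4 and 22.0 FPKM) and TARBP2 (18.4 and 19.9 FPKM) had the highest levels and overlapped. DROSHA followed at 14.5 and 14.1 FPKM, then DGCR8 at 11.4 and 11.1 FPKM and XPO5 at 10.7 and 10.9 FPKM, each apart from its neighbours in this order. AGO2 (7.470 and 7.82 FPKM), AGO1 (6.998 and 7.469 FPKM) and DICER1 (7.05 and 6.61 FPKM) lay close together, with AGO1 and DICER1 overlapping and the highest AGO1 library just under the lowest AGO2 one. AGO3 (3.24 and 2.98 FPKM) and TNRC6B (1.74 and 1.85 FPKM) were lowest. By mean control level TNRC6A was above 69.4% of the 11860 tested genes and TNRC6B above 9.38%.

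**Figure D1:**
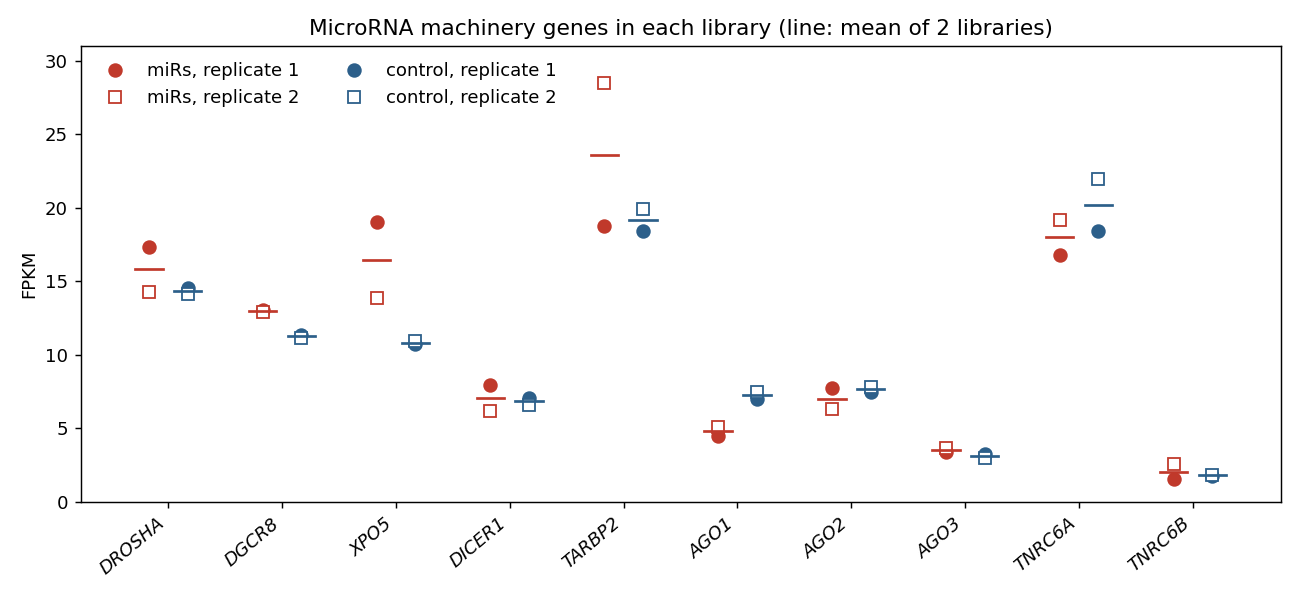
FPKM (y axis) of the 10 genes (x axis, ordered by step from hairpin cutting to silencing) in each library, with miRs in red left of control in blue, replicate 1 as filled circles, replicate 2 as open squares and a line at each mean of 2 libraries. XPO5 and AGO1 are set apart between groups, at 18.99 and 13.8 FPKM in miRs against 10.7 and 10.9 FPKM in control for XPO5, while 6 of the 10 genes overlap between groups.

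XPO5 was 1.52 times and AGO1 0.660 times as high in miRs as in control, and the mean ratios of the other 8 genes lay between 0.891 and 1.23. None of the 10 genes passed an adjusted p of 0.05 in limma, in a fit over all tested genes in which 0.101% of genes were called higher and 0.143% lower. Their smallest adjusted p was 0.136. At an unadjusted p under 0.05 there were 2 of the 10, AGO1 lower and XPO5 higher in miRs, where 24.2% of all tested genes reached that level. Both miRs libraries lay above both controls for XPO5, DGCR8 and AGO3, against 29.5% of tested genes, and below both for AGO1, against 30.0%. The median difference, miRs minus control on the log2(FPKM + 1) scale, was 0.11 over the 10 genes and −0.0020 over all tested genes. In size regardless of sign the median difference was 0.15 for the 10 genes and 0.27 for all tested genes.

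**Figure D2:**
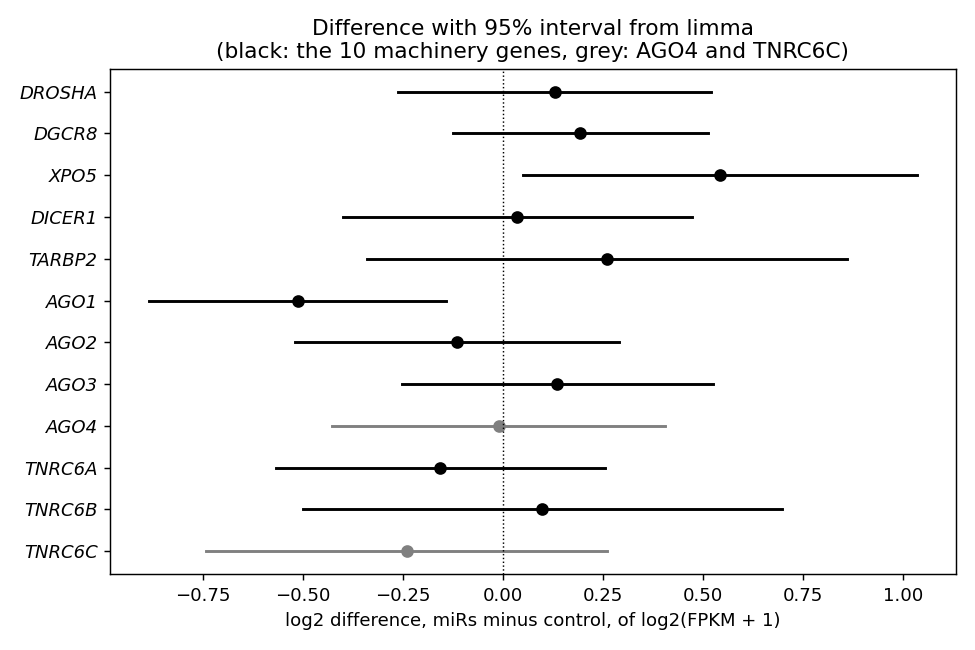
Difference between miRs and control on the log2(FPKM + 1) scale (x axis) with its 95% interval from limma, for the 10 genes in black and their paralogs AGO4 and TNRC6C in grey. The unadjusted intervals of XPO5 (0.051 to 1.03) and AGO1 (−0.89 to −0.14) leave out 0 and the other 10 intervals include it.

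At the first step, DROSHA was at 17.3 and 14.3 FPKM in miRs replicates 1 and 2 and at 14.5 and 14.1 FPKM in control replicates 1 and 2. Only miRs replicate 1 stood above the rest, and the groups overlapped. The log2 difference was 0.13 (95% interval −0.26 to 0.52, adjusted p = 0.621 in limma). DGCR8 was at 13.1 and 12.9 FPKM in miRs and 11.4 and 11.1 FPKM in control, so that replicates lay closer together than the groups. Its log2 difference of 0.19 (95% interval −0.13 to 0.51) did not pass (adjusted p = 0.382 in limma). The ratio of DROSHA to DGCR8 averaged 1.22 ± 0.157 in miRs and 1.27 ± 0.00852 in control (SD, n = 2 each), and the ranges overlapped.

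The DGCR8 message is known to carry hairpins that the Microprocessor itself cuts, which lowers DGCR8. RefSeq places 2 microRNA genes, MIR1306 and MIR3618, inside DGCR8 on chromosome 22, and their mature products are shown for that reason, with seeds in capitals.
hsa-miR-3618: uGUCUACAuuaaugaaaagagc
hsa-miR-1306-5p: cCACCUCCccugcaaacgucca
hsa-miR-1306-3p: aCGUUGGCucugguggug
Both genes were listed at 0 FPKM in all 4 libraries. A library of polyadenylated RNA is not built to measure RNAs this short, so the zeros do not show that the microRNAs were absent.

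XPO5 was at 18.99 and 13.8 FPKM in miRs and at 10.7 and 10.9 FPKM in control. Both miRs libraries were above both controls, and replicate 1 was well above replicate 2. On average XPO5 was 1.52 times as high in miRs (16.4 ± 3.65 against 10.8 ± 0.157 FPKM, SD, n = 2 each), a log2 difference of 0.54 ± 0.19 (SE) that did not pass over all genes (adjusted p = 0.182 in limma, unadjusted 0.0367). Without miRs replicate 2 the log2 difference was 0.76 and passed (adjusted p = 0.0162), with the lone miRs library assumed to vary like the controls. Without miRs replicate 1 it was 0.33 (adjusted p = 0.129), and without either control it did not pass either (adjusted p of 0.724 and 0.721). Relative to DICER1, the next enzyme in the path, XPO5 stood at ratios of 2.39 and 2.23 in miRs and 1.52 and 1.65 in control. The groups did not overlap in this ratio, and with 2 libraries against 2 the exact permutation test (2-sided) cannot go below the p of 0.333 found here.

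XPO5 overlaps POLR1C, a subunit gene of RNA polymerases I and III, which GENCODE 29 places on the opposite strand, and whether the authors counted by strand is not given in the sources used here. POLR1C was at 22.1 and 15.9 FPKM in miRs and 17.8 and 13.0 FPKM in control (log2 difference 0.28, adjusted p = 0.497 in limma), with overlapping groups. The part of shared reads in the XPO5 values was not tested.

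The promoter window of XPO5 is printed because it was the member with the largest log2 difference, and that of AGO1 because it was the lowest. Each runs 250 bases before to 50 after the start, from RefSeq (GRCh38.p14), 5′ to 3′ on the gene's strand. Capitals mark the CCAAT box (CCAAT) and the GC box (GGGCGG), on either strand, and adjoining or overlapping matches run together.
XPO5, chr6:43575989-43576288, minus strand: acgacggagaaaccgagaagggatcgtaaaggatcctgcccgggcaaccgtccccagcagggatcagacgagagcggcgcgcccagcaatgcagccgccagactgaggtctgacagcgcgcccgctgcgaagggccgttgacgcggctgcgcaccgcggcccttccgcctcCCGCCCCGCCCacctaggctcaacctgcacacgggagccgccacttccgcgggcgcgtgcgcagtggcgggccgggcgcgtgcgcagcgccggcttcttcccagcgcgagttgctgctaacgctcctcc
AGO1, chr1:35882959-35883258, plus strand: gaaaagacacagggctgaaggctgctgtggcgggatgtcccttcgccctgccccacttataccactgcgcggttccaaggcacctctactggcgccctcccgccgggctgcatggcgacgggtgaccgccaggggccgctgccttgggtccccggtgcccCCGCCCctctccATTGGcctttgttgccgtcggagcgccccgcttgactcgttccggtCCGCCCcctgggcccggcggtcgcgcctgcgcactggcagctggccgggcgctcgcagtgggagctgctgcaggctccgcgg
Both windows are rich in G and C (71.7% for XPO5 and 72.3% for AGO1) and hold 2 GC boxes each, which 45.0% of all 35116 promoter windows hold at least once. AGO1 also has a CCAAT box, which 34.6% of windows have, and XPO5 has none. The core of the interferon-stimulated response element, a pair of GAAA words 2 bases apart on either strand, was in none of the 15 windows of the 9 members in that table (AGO2 is not in it), against 3.57% of all windows. In the windows of the interferon response list described further down it was in 24 of 38. ADAR and MOV10, partner genes with means 2.57 and 2.09 times as high in miRs, have 3 windows each, none of them with it. A match, or its absence, says nothing of binding.

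DICER1 was at 7.95 and 6.19 FPKM in miRs and at 7.05 and 6.61 FPKM in control. The miRs libraries lay on either side of the controls, with a log2 difference of 0.036 (95% interval −0.40 to 0.47, adjusted p = 0.911 in limma). TARBP2 was at 18.7 and 28.5 FPKM in miRs and at 18.4 and 19.9 FPKM in control, where miRs replicate 2 alone was high. Its log2 difference of 0.26 (95% interval −0.34 to 0.86, adjusted p = 0.517 in limma) became 0.55 without miRs replicate 1 (adjusted p = 0.0483) and −0.028 without miRs replicate 2. RefSeq has TARBP2 overlapping the kinase gene MAP3K12, which was at 4.17 and 7.79 FPKM in miRs and 12.3 and 12.01 FPKM in control (adjusted p = 0.145 in limma).

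Among the argonautes, AGO1 was lower in miRs, while AGO2 and AGO3 lay close to control. AGO1 was at 4.45 and 5.10 FPKM in miRs and at 6.998 and 7.469 FPKM in control, and the groups did not overlap. Its mean in miRs was 0.660 times that in control (4.78 ± 0.454 against 7.23 ± 0.333 FPKM, SD, n = 2 each), a log2 difference of −0.51 ± 0.14 (SE) that did not pass over all genes (adjusted p = 0.136 in limma, unadjusted 0.0172). It passed without miRs replicate 2 (log2 difference −0.59, adjusted p = 0.0344, the lone library assumed to vary like the controls). It did not pass without miRs replicate 1 (−0.43, adjusted p = 0.103), control replicate 1 (−0.55, adjusted p = 0.695) or control replicate 2 (−0.47, adjusted p = 0.729). AGO1 had the lowest difference of the 10 genes, at percentile 12.3 of all tested genes.

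AGO2, the argonaute that itself cuts well-paired targets, was at 7.75 and 6.29 FPKM in miRs and at 7.47 and 7.82 FPKM in control. Its miRs libraries differed more from each other than the group means did (log2 difference −0.11, 95% interval −0.52 to 0.29, adjusted p = 0.672 in limma). AGO3 was at 3.39 and 3.65 FPKM in miRs and at 3.24 and 2.98 FPKM in control, just above both controls in both miRs libraries (log2 difference 0.14, adjusted p = 0.604 in limma). The paralog AGO4, outside the 10, was at 2.83 and 2.81 FPKM in miRs and 2.62 and 3.09 FPKM in control, with overlapping groups.

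Each argonaute was also set against the sum of all 4. AGO1 made up 24.2% and 28.6% of the summed AGO1 to AGO4 FPKM in miRs and 34.4% and 35.0% in control. AGO3 made up 18.4% and 20.4% in miRs and 16.0% and 14.0% in control. The ratio of AGO1 to AGO3 averaged 1.36 ± 0.0584 in miRs and 2.33 ± 0.246 in control (SD, n = 2 each). Its lack of overlap follows from AGO1 lying below and AGO3 above both controls in both miRs libraries, and is no separate result. Relative to AGO2, AGO1 stood at ratios of 0.575 and 0.811 in miRs and 0.937 and 0.955 in control, without overlap. For this ratio to AGO2 the exact permutation p was 0.333 (2-sided), the smallest that 2 libraries against 2 allow. AGO4, AGO1 and AGO3 are next to each other on chromosome 1, in that order, with no other protein-coding gene between them in RefSeq. Argonaute messages are alike in sequence, so FPKM of single members depends on how the authors assigned shared fragments. The shares also depend on the transcript lengths used.

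**Figure D3:**
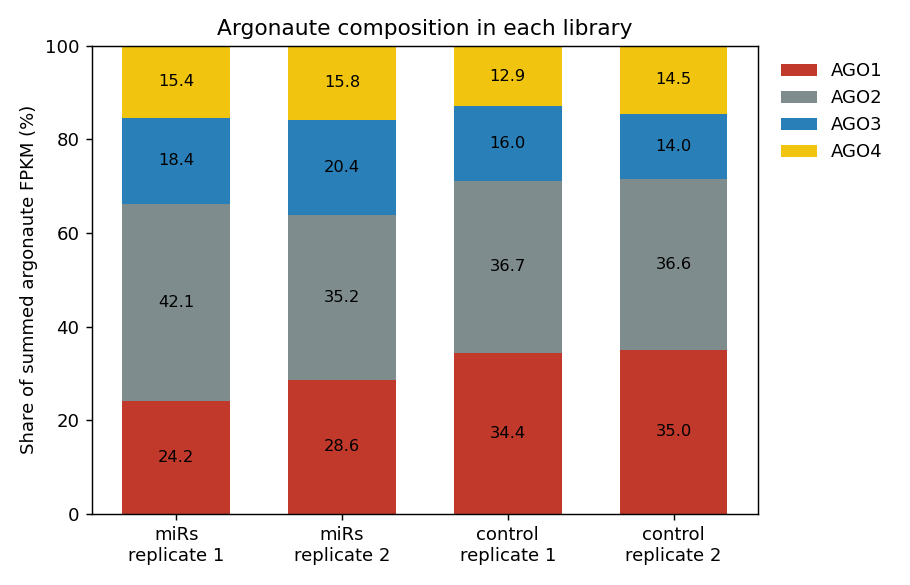
Share of each argonaute (colours) in the summed FPKM of AGO1 to AGO4 (y axis, percent) in the 2 miRs libraries on the left and the 2 control libraries on the right. AGO1 takes 24.2% and 28.6% in miRs and 34.4% and 35.0% in control, and AGO2 is the largest part in every library.

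TNRC6A, the GW182 gene with the highest FPKM in these cells, was at 16.8 and 19.2 FPKM in miRs and at 18.4 and 22.0 FPKM in control. The groups overlapped, with a log2 difference of −0.16 (95% interval −0.57 to 0.25, adjusted p = 0.572 in limma) that was between −0.28 and −0.035 when a library was left out. TNRC6B was at 1.53 and 2.54 FPKM in miRs and 1.74 and 1.85 FPKM in control, the miRs libraries again on either side of the controls (log2 difference 0.098, adjusted p = 0.815 in limma). The paralog TNRC6C was at 1.498 and 2.11 FPKM in miRs and at 2.23 and 2.36 FPKM in control, lower without overlap and not called (log2 difference −0.24, adjusted p = 0.475 in limma). TNRC6A held 84.7% and 80.5% of the summed TNRC6 FPKM in miRs and 82.3% and 83.9% in control.

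Replicates of the miRs group differed more than those of control. The median gap between replicates over the 10 genes was 0.26 in miRs and 0.070 in control (log2), and 7 of the 10 had the wider gap in miRs, against 74.0% of all tested genes. Of these 7, XPO5, DICER1, DROSHA and AGO2 were higher in miRs replicate 1 and TARBP2, TNRC6B and AGO1 in miRs replicate 2. Genes of the interferon response, which cells switch on when they sense foreign RNA, also differed in size between these libraries. The 36 listed genes summed to 13769 and 2743 FPKM in miRs replicates 1 and 2 and to 201 and 245 FPKM in control. Each of the 36 lay above both controls in both miRs libraries, against 29.5% of tested genes. None of the 36 passed an adjusted p of 0.05, and all 36 had an unadjusted p under 0.05, against 24.2% of tested genes. The part of the interferon response in the values of XPO5, AGO1 and the other members was not tested.

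The label of fibroblast was checked against markers. Of 10 fibroblast markers all were expressed, and they summed to 6702 and 11558 FPKM in miRs and 9978 and 10108 FPKM in control. In miRs 5 of them were lower without overlap, against 30.0% of tested genes, among them DCN at 352 and 419 FPKM, against 963 and 1223 FPKM in control. The other 5 overlapped, and of these COL1A1 and COL3A1 were 1.37 and 1.36 times as high by mean in miRs. Of 8 epithelial markers 3 were tested and all 3, KRT8, KRT18 and KRT19, were higher without overlap, against 29.5% of tested genes. KRT18 and KRT19 passed an adjusted p of 0.05 (0.0354 each in limma). These 8 summed to 182 and 261 FPKM in miRs and 28.3 and 30.8 FPKM in control, with CDH1 at 0 in both miRs libraries and at most 0.0356 FPKM in control. EPCAM was at 1.07 and 1.61 FPKM in miRs and at 0 and 0.228 FPKM in control, and KRT5, SFTPC and NKX2-1 were listed at 0 in all 4 libraries. No endothelial or blood marker reached 1 FPKM in any library. In bulk RNA, fewer cells of a type and less RNA per cell cannot be told apart, and the part of these markers in the members' values was not tested.

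The related steps were read from lists of partner genes, also chosen with earlier results known, and their counts at an unadjusted p under 0.05 stand beside the 24.2% of all tested genes at that level. Of 16 cofactors of the Microprocessor and of export, 16 were tested and none was called. At an unadjusted p under 0.05 there was 1, ADAR, an editing enzyme of double-stranded RNA with an interferon-inducible form, at 151 and 103 FPKM in miRs and 45.9 and 52.7 FPKM in control (log2 difference 1.32, adjusted p = 0.0847 in limma). Next by p were NCBP1, DDX5 and NCBP2, each lower in miRs without overlap. DDX5, a helicase that assists DROSHA, was at 151 and 130 FPKM in miRs and 177 and 183 FPKM in control. NCBP1 and NCBP2, the cap-binding pair, had log2 differences of −0.36 and −0.35. The median difference of the list was 0.031.

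Among 17 partners of DICER1 and of the silencing complex, none was called, 4 were higher and 3 lower at an unadjusted p under 0.05 (24.2% of all tested genes), and the median difference was 0.11. MOV10, a helicase that binds argonautes, was at 64.8 and 41.5 FPKM in miRs and 24.5 and 26.3 FPKM in control (log2 difference 1.003, adjusted p = 0.112 in limma). The fragile X family was split: FMR1 was at 11.5 and 7.60 FPKM in miRs and 5.53 and 5.51 FPKM in control, and FXR2 at 19.01 and 18.1 FPKM in miRs and 31.3 and 25.7 FPKM in control. DDX20, a helicase found with argonautes, was at 11.7 and 9.66 FPKM in miRs and 7.20 and 7.43 FPKM in control.

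Genes of microRNA turnover numbered 13, of which LIN28A, LIN28B and TRIM71, regulators of let-7 in embryonic cells, were listed at 0 in all 4 libraries. None of the 10 tested was called, and ERI1, a nuclease, was the only one at an unadjusted p under 0.05, at 8.53 and 8.42 FPKM in miRs and 5.99 and 6.31 FPKM in control. Next by p were the nucleotidyltransferases PAPD5 and PAPD4 and the nuclease SND1, with log2 differences of 0.34, 0.32 and −0.28. The median difference of the list was 0.10.

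Downstream of TNRC6, the 17 deadenylation genes had a median difference of 0.0041, with none called, 2 higher and 1 lower at an unadjusted p under 0.05 (24.2% of all tested genes). CNOT1, the scaffold of the CCR4-NOT deadenylase, was at 38.2 and 36.6 FPKM in miRs and 29.7 and 28.0 FPKM in control (log2 difference 0.37, adjusted p = 0.175 in limma). CNOT7, one of its catalytic subunits, was at 37.1 and 40.5 FPKM in miRs and 31.2 and 29.5 FPKM in control. Of the other catalytic subunits, CNOT6L was higher without overlap, CNOT8 was lower without overlap and CNOT6 overlapped. TOB2, an adaptor of that complex, had a log2 difference of −0.36 and the subunit CNOT10 one of 0.42.

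The 21 decapping and P-body genes had the widest median difference among the lists of the pathway, 0.24, with none called, 5 higher and 3 lower at an unadjusted p under 0.05 (24.2% of all tested genes). In this list 11 were higher and 7 lower without overlap, against 29.5% and 30.0% of tested genes. DCP2, the decapping enzyme, was at 3.71 and 4.21 FPKM in miRs and 1.44 and 1.86 FPKM in control, 2.40 times as high by mean (log2 difference 0.91, adjusted p = 0.0902 in limma). Its activators went both ways: PATL1 was at 34.3 and 24.3 FPKM in miRs and 16.4 and 17.98 FPKM in control, and DDX6, the helicase that links CCR4-NOT to decapping, at 17.2 and 16.3 FPKM in miRs and 22.6 and 22.8 FPKM in control. LSM5, of the ring that binds shortened tails, was at 13.8 and 12.4 FPKM in miRs and 7.80 and 8.99 FPKM in control. Of the other ring genes, LSM2, LSM3, LSM4 and LSM6 were also higher without overlap, LSM7 was lower without overlap and LSM1 overlapped.

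**Figure D4:**
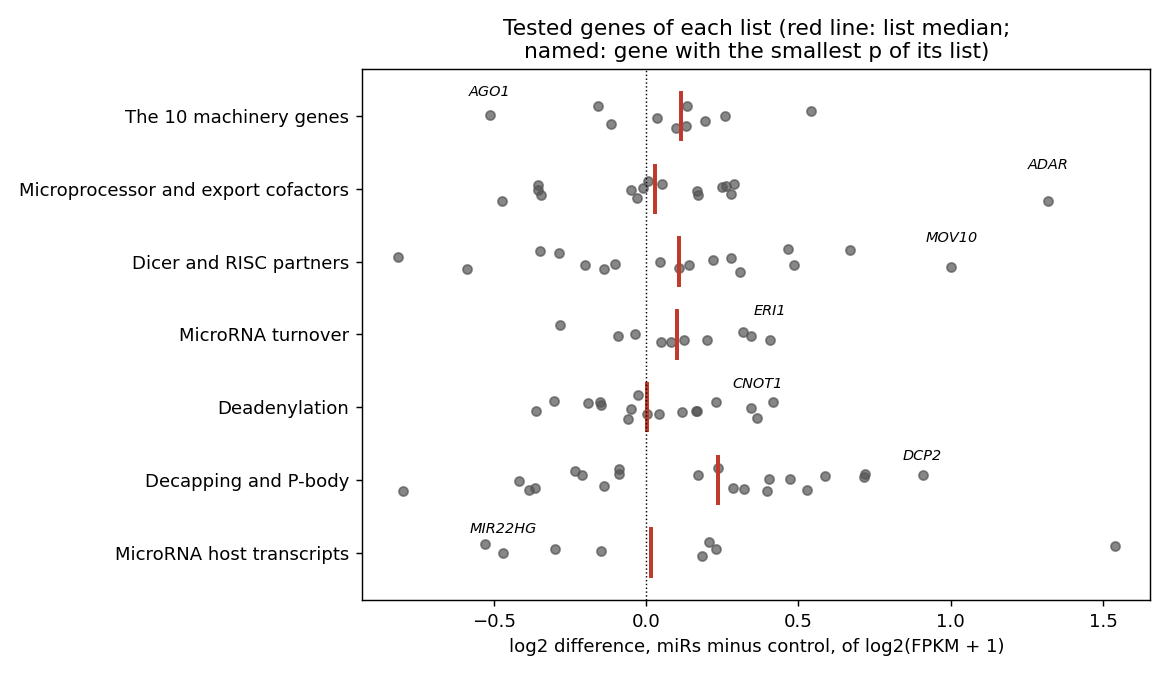
Difference between miRs and control on the log2(FPKM + 1) scale (x axis) for each tested gene of the 10 machinery genes and the partner lists (rows; points are spread vertically for legibility), with the list median as a red line and the gene of smallest p named. Medians lie between 0.0041 for deadenylation and 0.24 for decapping, and the point far to the right in the last row is MIR503HG at 1.54.

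The machinery genes differ widely in the length of their 3′ untranslated regions. By the longest one annotated in GENCODE 29, AGO1 (10921 bases), AGO2 (11888), AGO3 (16755) and TNRC6B (12567) were at least 5000 bases long, 4 of the 10, against 8.13% of tested genes with a 3′ region. DROSHA (935), TARBP2 (450), XPO5 (1538) and DGCR8 (1767) were far shorter, where the median of tested genes was 1392 bases. Which 3′ ends MRC5 cells use was not measured.

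Of the 10 genes, 6 held a 7-base match to at least 1 of the 5 seeds shown at the opening, and DROSHA, DGCR8, XPO5 and TNRC6A held none, as did 46.8% of tested genes. DICER1 (4270 bases) had 5 matches to the miR-103 family (ATGCTGC), a family known to act on it. AGO2 also had 5, AGO1 and TNRC6B had 3 each, and AGO3 had 1. At least 1 such match is held by 14.2% of tested genes and by 43.8% of those with at least 5000 bases, a length that DICER1 does not reach. In these 3′ regions DICER1 had no match to the let-7 seed, which AGO1, AGO2, AGO3 and TARBP2 did match. Coding sequences were not searched. The 5 matches of DICER1 to the miR-103 family are shown with up to 10 bases on each side, the match in capitals.
DICER1, base 1034: cacctaaaatATGCTGCagattttata
DICER1, base 1635: gcttcgtggaATGCTGCatttatatgt
DICER1, base 2839: agtcctaactATGCTGCgttttataat
DICER1, base 4110: ttaccatcacATGCTGCagctgttttt
DICER1, base 4162: tacagtaatcATGCTGCagaaatttgc

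AGO1, the member lowest in miRs relative to control, had 2 matches to the miR-200c seed (CAGTATT) and 3 to the miR-200a seed (CAGTGTT), and none to the miR-302 seed (AGCACTT). Among tested genes with at least 5000 bases 57.7%, 63.1% and 68.3% hold each of these, and matches are thus common in regions of this length. AGO2 also had 2 matches to the miR-200c seed and none to the miR-200a seed, and AGO3 had 1 and 2. DICER1 had none to the miR-200c seed and 2 to the miR-200a seed. The matches of AGO1 are shown.
AGO1, base 4859: actgtgccagCAGTATTgtggggaggg
AGO1, base 5670: cgttattctcCAGTATTtcttgaaaat
AGO1, base 3662: agctaagcagCAGTGTTtttggatact
AGO1, base 8221: agagggccttCAGTGTTagctgtgtct
AGO1, base 10002: ttttaagatgCAGTGTTtcatctggtg

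AGO3, which was not lower in miRs, had 6 matches to the miR-302 seed, the most of the 10 genes. One of the 6 is shown, with the match in capitals.
AGO3, base 5231: atcatagaaaAGCACTTttgtgattct
TNRC6B had 7 matches to the miR-200a seed and 3 to the miR-302 seed, and its level lay within the spread of the replicates. A match is a stretch of letters and was not tested as a site of silencing.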

How the data were processed

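RNA of MRC5 cells was sequenced in 4 libraries, 2 of miRs and 2 of control. Per the labels' protocols, a TruSeq Stranded mRNA kit was used on total RNA. Per the submitters' processing notes, the tools were Cuffdiff 2.2.1, TopHat2 2.1.1, SAMtools 0.1.18 and Bowtie2 2.2.8 and the build was hg19; roles, annotation and strand setting: not given in the sources used here. Per the file headers, the authors deposited FPKM for each symbol. Read numbers are unknown. Among genes under 0.3 FPKM, the commonest ratio to control replicate 1 was 0.899 in miRs replicate 1, 1.03 in miRs replicate 2 and 1.05 in control replicate 2, shared by 19.1% to 24.8% of these genes within 1%. Whole reads were not recovered, and no count test was run.

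The 11860 of 26255 genes averaging 1 FPKM or more were tested in R 4.3.3 with limma 3.58.1 (2-sided, variance trend) on log2(FPKM + 1), a scale that understates the change of low genes, and p-values were adjusted by Benjamini-Hochberg over all of them, with a threshold of 0.05. The fit was tested on simulated data. Group overlaps, sums and ratios were computed in Python 3.11.15. The members and lists were chosen with earlier results of these data known. Named are all 10 members, AGO4 and TNRC6C, up to 4 genes of each partner list by smallest p, and ACTB, GAPDH, VIM and COL1A1 as checks. LIN28A, LIN28B and TRIM71 are the untested genes of the turnover list, and the cell type markers named are from the marker lists. POLR1C, MAP3K12, MIR1306, MIR3618, CNOT6, CNOT6L, CNOT8 and the LSM genes other than LSM5 were chosen after their values were seen. The longest 3′ region of each symbol came from GENCODE 29 (91.1% of tested genes matched), and promoters and microRNAs from RefSeq. Both are on GRCh38, not hg19, and were joined by symbol only. Other settings tried were another pseudocount (0.1), other minimums (none, 5 FPKM), other scalings (median-of-ratios, quantile), no variance trend, a replicate block and each library left out.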

Additional observations from a re-analysis of the deposited data

How the results depend on the processing

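Of 108 repeats of the differences of the 10 genes under other settings, 99 kept both the direction and the side of the threshold, 6 turned in direction and 3 passed the threshold. All 9 exceptions came from leaving out 1 library, which leaves a group with 1 sample that is assumed to vary like the other group. The directions turned for DICER1 without control replicate 2 (−0.0049) or miRs replicate 1 (−0.12), for DROSHA without miRs replicate 1 (−0.0014), and for AGO2 (0.017), TARBP2 (−0.028) and TNRC6B (−0.14) without miRs replicate 2. Over the 4 such repeats the difference ran from −0.12 to 0.19 for DICER1, −0.0014 to 0.26 for DROSHA, −0.25 to 0.017 for AGO2, −0.028 to 0.55 for TARBP2 and −0.14 to 0.34 for TNRC6B, and with no turn from 0.33 to 0.76 for XPO5, −0.59 to −0.43 for AGO1, −0.28 to −0.035 for TNRC6A, 0.090 to 0.18 for AGO3 and 0.18 to 0.20 for DGCR8. The cause was not tested. The median difference of the 10 genes, 0.11, was 0.083 with a minimum of 5 FPKM, which leaves out AGO3 and TNRC6B, and 0.056 to 0.113 when a library was left out. The count of genes called over all tested genes, 29, was 0 in limma with no minimum (3338 genes at an unadjusted p under 0.05), 6 with quantile normalization and 0 to 3746 when a library was left out. With a replicate block it was 99, and the block changed no call among the 10 genes. The numbers are not stated to pair the libraries, and with 2 pairs only, the deviations of same-numbered libraries correlated at 0.20 over 11860 genes. With 2 libraries a group and read numbers unknown, a gene that was not called is not shown to be alike in the groups.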

Other observations

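Host transcripts of microRNAs, from which hairpins are cut, were measured beside the enzymes. Of 21 listed, 20 were in the files and 8 were tested, with none called and a median log2 difference of 0.017. MIR503HG, host of miR-503 and miR-424, was at 30.7 and 81.5 FPKM in miRs and 15.2 and 18.2 FPKM in control, 3.37 times as high by mean (log2 difference 1.54, adjusted p = 0.158 in limma). MIR22HG, host of miR-22, was at 20.2 and 22.2 FPKM in miRs and 29.1 and 30.3 FPKM in control (adjusted p = 0.134 in limma). MIR210HG, host of the hypoxia-induced miR-210, was at 3.51 and 2.85 FPKM in miRs and 5.24 and 4.80 FPKM in control (adjusted p = 0.151 in limma). MIR100HG was at 46.8 and 29.5 FPKM in miRs and 44.9 and 47.2 FPKM in control, with overlapping groups. These 4 were named by the smallest p in the list, and the levels of the mature microRNAs were not measured.

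Of the 4 abundant transcripts listed as checks, 3 were lower in miRs without overlap, against 30.0% of tested genes. ACTB, the cytoplasmic actin, was at 3022 and 3679 FPKM in miRs and 5648 and 5619 FPKM in control (log2 difference −0.76, adjusted p = 0.0937 in limma). GAPDH was at 4736 and 4421 FPKM in miRs and 6135 and 5526 FPKM in control (adjusted p = 0.213 in limma), and VIM was the third. COL1A1 overlapped, at 1910 and 4742 FPKM in miRs and 2337 and 2521 FPKM in control (log2 difference 0.31, adjusted p = 0.700 in limma).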
